A study of Homo sapiens with 6 samples.

Results

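The genes described here encode the nuclear subunits of respiratory complex I and the factors that assemble it. They were chosen by name, as 44 listed NDUF symbols among the 34644 gene names of the count tables, with the counts of listings that share a name added together. They comprise 6 core subunits, 30 accessory subunits and 8 assembly factors, and all 44 passed the filter on low counts. RNA sequencing was done on the human podocyte line HPC, whose genotype is given as WT, in 2 groups of 3 libraries. The PRDM16 group received a lentivirus made to overexpress PRDM16, a zinc finger transcription factor best known from brown fat, in high glucose. The NC group received a negative control lentivirus, also in high glucose, and both groups carry 24 h in their titles. The sources used here give neither the promoter of the lentivirus nor the glucose concentration, and do not say whether each library had its own culture. The p-values below therefore reflect the variation among these libraries alone, which may be technical. All comparisons are between the lentiviruses within high glucose.

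Complex I is the entry point of the mitochondrial respiratory chain. It takes electrons from NADH in its matrix arm, passes them along a chain of iron-sulphur clusters to ubiquinone, and uses the energy to pump protons through its membrane arm. The core subunits carry out the chemistry and have bacterial relatives, the accessory subunits surround and stabilise them, and assembly factors help to build the complex without staying in it. Podocytes, the epithelial cells that wrap the filtering capillaries of the kidney, respire as well as use glycolysis.

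The libraries held 20147135 to 41280350 counts with PRDM16 and 20969179 to 27655378 with NC. PRDM16 itself had 11, 18 and 24 counts in the PRDM16 libraries and 0 in each NC library, at least 13.9-fold higher against a pooled floor of 3 counts, and an exact permutation test (two-sided) gave p = 0.1, the lowest value open to 3 against 3 libraries. Markers of the labelled cell type were uneven. Of 12 podocyte markers, 5 had at most 4 counts in every library, among them NPHS1 (nephrin) and WT1, and the summed level of the 12 was 329.8 to 513 CPM with PRDM16 and 376 to 477 with NC. Nearly all of that sum came from PODXL, CD2AP, ACTN4 and SYNPO. ACTN4 varied most, with 4191, 1353 and 5051 counts with PRDM16 and 969, 1224 and 860 with NC. TCF21 had 4 to 16 counts per library, NES 27 to 52 and PLA2R1 33 to 73. The 7 markers of parietal epithelium summed to 4236 to 4653 CPM with PRDM16 and 3933 to 4289 with NC. Most of that sum came from the keratins KRT8, KRT18 and KRT19, with KRT8 at 27202 to 60585 counts per library. Of the other parietal markers, CLDN1 had 9788 to 22830 counts per library, PAX8 4256 to 10833, CD24 2017 to 4844 and PAX2 569 to 1383. Endothelial markers summed to 2.23 to 2.91 CPM with PRDM16 and 2.14 to 2.58 with NC, and those of tubule to 2.82 to 3.42 with PRDM16 and 3.34 to 3.7 with NC. The 4 immune markers summed to 173 to 179 CPM with PRDM16 and 141 to 162 with NC, nearly all of it CD68, with PTPRC at 9 to 22 counts and LYZ and CD3E at or near 0, and the 6 of mesangium and fibroblast to 96.1 to 107 with PRDM16 and 86.6 to 118 with NC. The part of any of these cell types in the results below was not tested. NC library 2 stood apart from the other 5 libraries in its counts over genes (chi-square per degree of freedom 17.2 to 41.2, against 6.39 to 16.8 among the others), and the closest libraries, PRDM16 library 3 and NC library 1, are of different groups. A lower count in such bulk samples cannot tell fewer cells from less RNA per cell.

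Levels are compared between genes in TPM (transcript abundances scaled to 1000000 per library), which the authors corrected for the listed length of each gene. Mean TPM over the 6 libraries spread widely among the genes. The highest was NDUFA13 (also known as GRIM-19), a membrane arm subunit, at 931 ± 94.4 TPM (SD, n = 6), followed by NDUFS5 at 884 ± 98.7 TPM, which did not differ beyond that spread. The next was NDUFB2 at 592 ± 76.1 TPM. Among the core subunits NDUFS8 stood at 518 ± 65.5 TPM and NDUFV1 at 466 ± 17.7 TPM. NDUFS8 was the higher of these in each PRDM16 library, and the order varied among the NC libraries. NDUFV2, at 78.6 ± 5.63 TPM, and NDUFS7, at 69.5 ± 9.66 TPM, lay far below that pair. NDUFV2 had 73.8, 79.1 and 83.8 TPM with NC, each above the 70.5, 59.3 and 57.3 of NDUFS7. With PRDM16 the order varied, at 77.6, 86.1 and 71.4 TPM for NDUFV2 and 82.9, 74.1 and 73.2 for NDUFS7. The listed lengths of NDUFV2 and NDUFS7, by which TPM are divided, are 3477 and 2694 bases, against 737 for NDUFS8 and 1560 for NDUFV1. The median was 122 TPM over the accessory subunits and 13.6 TPM over the assembly factors, whose highest member was NDUFAF8 at 117 ± 20.6 TPM and whose lowest was NDUFAF7 at 1.55 ± 0.21 TPM. The listed lengths join the exons of all transcripts, so that NDUFA10 (12491 bases), NDUFA9 (8356 bases) and NDUFA5 (7288 bases) are divided by far more than their short coding parts. Long listed lengths also lower the TPM of NDUFAF7 (13181 bases) and NDUFS1 (11774 bases). NDUFAF7 had 143 to 271 counts per library, a range like the 133 to 268 of NDUFAF1. NDUFAF1, listed at 1768 bases, stood at 11.1 TPM.

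**Figure D1:**
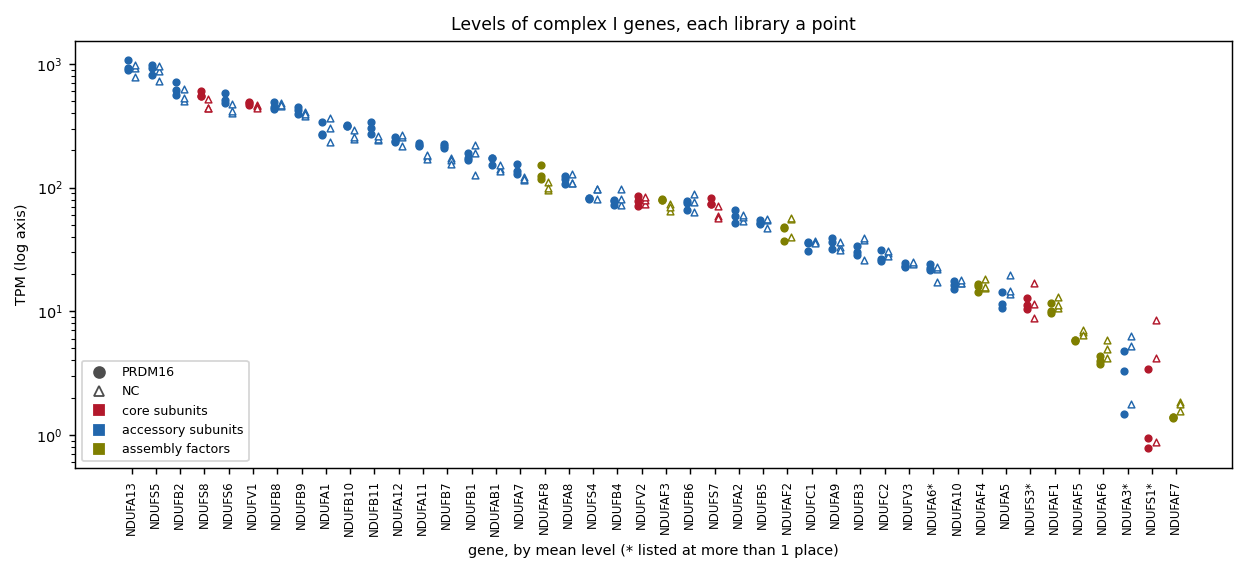
TPM of each of the 44 genes in every library, on a log axis, with genes ordered by mean level; filled circles are PRDM16 libraries and open triangles NC libraries. Levels run from 931 TPM for NDUFA13 (listed length 521 bases) to 1.55 TPM for NDUFAF7 (13181 bases). NDUFS1 and NDUFA3, both listed at more than 1 place, scatter most.

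The tables hold 4 of the 44 genes several times, once on a chromosome and again on scaffolds outside the chromosomes, and the levels of these 4 were low. NDUFS1 had a mean of 3.11 TPM and NDUFS3 one of 11.9 TPM, both far below the other 4 core subunits. The accessory genes NDUFA3 and NDUFA6 had means of 3.8 and 21.7 TPM. The median of the 32 subunit genes with a single place was 142 TPM, and the lowest of them, NDUFA5, stood at 14 TPM. Over all tested genes the medians were 4.03 TPM for the 667 listed at several places and 13.3 TPM for the 14386 listed at 1. The place that held the counts varied by gene. NDUFS3 had 1, 2 and 1 counts on chromosome 11 against 88, 107 and 139 on its scaffold in the PRDM16 libraries, and 0, 2 and 2 against 63, 96 and 113 in the NC libraries. NDUFA6 had at most 1 count at its place on chromosome 22 in any library and 176 to 358 on a single scaffold. NDUFS1 was counted on chromosome 2, with at most 5 counts on its scaffold. The sources used here do not say how the authors assigned reads that match several places, and the part of that step in these low levels was not tested.

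The question put to the counts was which of these genes differed between the lentiviruses. A single gene passed, NDUFB7, which was higher with PRDM16 (edgeR quasi-likelihood test, adjusted p = 0.0407). That is 1 of 44, against 18 of all 15053 tested genes (0.12%), of which 14 were higher (0.093%) and 4 lower (0.0266%). Below that threshold most of the genes lay above 0. The log2 fold change was positive in 35 of 44, where 7122 of all tested genes (47.3%) were positive, and its median was 0.13 against -0.02 over all tested genes. The sign was positive in 5 of 6 core subunits (median 0.18), 27 of 30 accessory subunits (median 0.15) and 3 of 8 assembly factors (median -0.04). Subunits of the matrix arm had a median of 0.19 (12 of 15 positive) and those of the membrane arm one of 0.14 (19 of 20 positive), with NDUFAB1, which sits in both, left out. Before adjustment, 13 of 44 had a p under 0.05 and a higher value, against 1475 of all genes (9.8%), and 0 lower, against 1065 (7.08%). The 3 PRDM16 libraries lay above the 3 NC libraries in 10 of 44 genes, against 1864 of all (12.4%), and below them in 1, NDUFAF7, against 1309 (8.7%). DESeq2 called 2 of the 44 (NDUFA11 and NDUFB7), against 47 of 13005 (0.361%), and limma-voom called NDUFB7 alone, against 16 of all genes (0.106%). Without the filter on low counts edgeR called 6 of them (NDUFA11, NDUFB7, NDUFB11, NDUFS7, NDUFS8 and NDUFAF8), against 114 of 25264 (0.451%).

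None of the core subunits passed. The highest log2 fold changes were those of NDUFS7 and NDUFS8, which pass electrons towards ubiquinone, and both were lower with the length and GC trend removed. NDUFS7, which holds the last iron-sulphur cluster before ubiquinone, had 90.2, 78.1 and 71.0 CPM in the PRDM16 libraries and 66.9, 52.4 and 56.5 CPM in the NC libraries. NDUFS8, which carries iron-sulphur clusters next to it, had 179.9, 158 and 147 CPM with PRDM16 and 135, 107 and 119 CPM with NC. In both genes each PRDM16 library lay above each NC library, but neither passed. The log2 fold change was 0.44 ± 0.12 (SE) for NDUFS7 and 0.43 ± 0.12 for NDUFS8, both with an adjusted p of 0.153 in edgeR. With the length and GC trend removed they were 0.14 and 0.09, below the 0.22 of NDUFV2. NDUFV1, the subunit that binds NADH and the flavin, had 304, 299 and 259.6 CPM with PRDM16 and 256, 233 and 252 CPM with NC. Its groups did not overlap either, with a smaller log2 fold change of 0.22 ± 0.12 (edgeR adjusted p = 0.318), and -0.03 with both trends removed. Its partner NDUFV2 had 109, 117 and 89.4 CPM with PRDM16 and 90.3, 90.2 and 107 CPM with NC. These groups overlapped, because PRDM16 library 3 lay below all 3 NC libraries, and the log2 fold change was 0.13 ± 0.12.

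The remaining core genes are those listed at several places. NDUFS1, the large subunit that holds several iron-sulphur clusters of the NADH module, had 16.1, 3.59 and 3.99 CPM with PRDM16 and 3.62, 32.6 and 18.1 CPM with NC. The highest library was 4.48 times the lowest with PRDM16 and 9.01 times with NC, where the median gene of the 44 had ratios of 1.27 and 1.26. Its log2 fold change of -1.25 ± 1.08 did not pass (edgeR adjusted p = 0.562) and ran between -2.26 and -0.49 as single libraries were left out. NDUFS3, a scaffold of the ubiquinone module, had 4.63, 3.92 and 3.36 CPM with PRDM16 and 2.75, 3.37 and 5.52 CPM with NC. Its groups overlapped fully, with a log2 fold change of 0.03 ± 0.22, negative with the length trend described below removed (-0.11).

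The accessory subunits held the gene that passed. NDUFB7, a subunit of the far end of the membrane arm that faces the space between the membranes, lies on chromosome 19 at 14566078 to 14572066 (hg38, minus strand). It had 121, 113 and 99.1 CPM in the PRDM16 libraries and 81.3, 71.9 and 74.6 CPM in the NC libraries. Each PRDM16 library thus exceeded each NC library, and the log2 fold change was 0.55 ± 0.12 (SE). The call was lost without PRDM16 library 1 (edgeR adjusted p = 0.269), PRDM16 library 2 (0.0852) or NC library 2 (0.0691). It was also lost with the length trend removed (0.176) and with the length and GC trend removed (0.732, at a log2 fold change of 0.20 ± 0.07 SE). The same held with RLE size factors (0.0866), with numbered listings kept as separate genes (0.0851) and with the replicate number as a block (0.0588). Over the 15 alternatives its adjusted p was 0.00225 to 0.732, and its log2 fold change stayed positive, between 0.20 and 0.62.

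The next genes by p did not pass. NDUFA11, a subunit embedded in the membrane arm, had 254, 237 and 217 CPM with PRDM16 and 175, 153 and 185 CPM with NC (log2 fold change 0.47 ± 0.12 SE, edgeR adjusted p = 0.104). NDUFB11, encoded on the X chromosome, had 193, 167 and 137 CPM with PRDM16 and 119, 114 and 134 CPM with NC (0.43 ± 0.12, edgeR adjusted p = 0.165). Both kept the groups apart. Of the exon bases of NDUFB11, 21.1% are shared with RBM10 on the other strand, and the strand setting of the counting is not given, so their reads cannot be fully told apart. The same limit holds, to differing extents, for 11 of the 44 genes. NDUFS6, a zinc-binding subunit added late with the NADH module, had 122, 103 and 90.2 CPM with PRDM16 and 73.2, 71.0 and 90.2 CPM with NC. Here PRDM16 library 3 and NC library 3 met at the edge of the groups (0.43 ± 0.13). NDUFB10, a cysteine-rich subunit of the membrane arm, had 86.3, 84.0 and 76.4 CPM with PRDM16 and 58.6, 56.7 and 72.7 CPM with NC. NDUFA7, in the matrix arm, had 54.3, 43.5 and 42.2 CPM with PRDM16 and 37.3, 33.2 and 37.7 CPM with NC. In both of these the groups did not overlap, with log2 fold changes of 0.39 ± 0.12 and 0.37 ± 0.13. With the length and GC trend removed the log2 fold changes were 0.23 for NDUFA11, 0.19 for NDUFB11, 0.22 for NDUFS6, 0.11 for NDUFB10 and 0.17 for NDUFA7.

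In the other accessory subunits with a small p, the libraries numbered 3 drew the groups together. NDUFAB1, the acyl carrier protein of mitochondria, had 53.8, 52.0 and 42.2 CPM with PRDM16 and 38.7, 34.8 and 43.1 CPM with NC (log2 fold change 0.34 ± 0.13 SE). NDUFB2 had 133, 113 and 94.4 CPM with PRDM16 and 81.8, 80.9 and 107 CPM with NC (0.34 ± 0.13). In each of them PRDM16 library 3 lay below NC library 3. NDUFB9, a binding partner of the acyl carrier protein, had 118, 122 and 98.1 CPM with PRDM16 and 99.8, 85.7 and 99.5 CPM with NC (0.25 ± 0.12). NDUFA13 had 226, 188 and 168 CPM with PRDM16 and 145, 157 and 188 CPM with NC (0.25 ± 0.13). NDUFA9, an NADPH-binding subunit near the ubiquinone site, had 132, 119 and 95.8 CPM with PRDM16 and 96.6, 86.4 and 111 CPM with NC (0.23 ± 0.13). PRDM16 libraries 1 and 2 were the highest or level with the highest in these genes, and none of them passed in edgeR (adjusted p 0.251 to 0.319 over these 5). With both trends removed the log2 fold change was 0.20 for NDUFB2, 0.14 for NDUFB9 and 0.39 for NDUFA9. NDUFB2 shares 24.3% of its exon bases with NDUFB2-AS1 on the other strand, and NDUFB9 shares 23.9% with TATDN1.

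NDUFA5, a matrix arm subunit, lay on the other side of 0. It had 31.1, 32.5 and 37.5 CPM with PRDM16 and 35.0, 46.8 and 38.8 CPM with NC, with NC library 2 the highest. Its log2 fold change was -0.25 ± 0.13 (SE; edgeR adjusted p = 0.303), and 0.00 with the length and GC trend removed. The lowest log2 fold change of an accessory subunit was that of NDUFA3, with 1.3, 0.647 and 1.73 CPM with PRDM16 and 1.79, 0.618 and 2.21 CPM with NC. NDUFA3 is listed at 10 places, some of them with 0 counts in every library, and its groups overlapped fully (-0.26 ± 0.58). NDUFS4, which anchors the NADH module and is mutated in Leigh syndrome, had 35.8, 34.5 and 31.9 CPM with PRDM16 and 30.6, 34.6 and 38.4 CPM with NC. NDUFB3, of the membrane arm, had 19.3, 21.0 and 16.3 CPM with PRDM16 and 14.5, 19.4 and 22.5 CPM with NC. In both the 2 groups covered much the same range, at log2 fold changes of -0.02 ± 0.13 and 0.00 ± 0.15. The 15 accessory subunits not given by library had log2 fold changes of 0.02 to 0.27 and overlapping groups; they are what was left once the smallest p and the lowest values had been taken out, which limits both their p and their sign. With the length trend removed 7 of the 15 were positive (median -0.01).

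The assembly factors differed among themselves, and none passed. NDUFAF8, the partner of the NDUFAF5 enzyme, had 82.4, 65.3 and 56.8 CPM with PRDM16 and 52.2, 42 and 48.6 CPM with NC. Its groups did not overlap, at a log2 fold change of 0.52 ± 0.13 (SE; edgeR adjusted p = 0.11), and over single libraries left out the adjusted p was 0.00602 (without PRDM16 library 3) to 0.628 (without PRDM16 library 1). It passed without PRDM16 library 3 or NC library 3 (0.0453) and not without any of the other 4 libraries. With the length and GC trend removed the log2 fold change was 0.23 (edgeR adjusted p = 0.74). NDUFAF5, which hydroxylates an arginine of NDUFS7, had 15.2, 14.8 and 13.2 CPM with PRDM16 and 15.5, 15 and 15.1 CPM with NC. The groups of NDUFAF5 overlapped (-0.08 ± 0.13), so the values of the partners lay apart, a difference that was not tested. NDUFAF3 and NDUFAF4 act together on the ubiquinone module. NDUFAF3 had 47.5, 46.7 and 42 CPM with PRDM16 and 38.3, 31.2 and 37.7 CPM with NC (0.34 ± 0.13, edgeR adjusted p = 0.251, and 0.07 with both trends removed). NDUFAF4 had 13.8, 15.7 and 13.8 CPM with PRDM16 and 13.1, 14.5 and 14 CPM with NC (0.06 ± 0.13). The groups of NDUFAF3 did not overlap and those of NDUFAF4 did. NDUFAF3 shares 21.5% of its exon bases with DALRD3 on the other strand.

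The other assembly factors lay at or below 0. NDUFAF7, an arginine methyltransferase that acts on a core subunit, had 7.44, 7.15 and 6.51 CPM with PRDM16 and 8.51, 7.73 and 7.48 CPM with NC. It was the gene of the 44 with every PRDM16 library below every NC library, by a small margin (log2 fold change -0.17 ± 0.16 SE, edgeR adjusted p = 0.536). NDUFAF6, needed to build the membrane part next to the ubiquinone site, had 17.1, 17.3 and 17.7 CPM with PRDM16 and 19.5, 21.6 and 17.1 CPM with NC (-0.16 ± 0.13). With the length trend removed both stood at -0.02. NDUFAF7 shares 9.98% of its exon bases with PRKD3 on the other strand. PRKD3 had 5238 counts over all libraries, against 1189 for NDUFAF7, and the part of this overlap was not tested. NDUFAF2, a late chaperone related to the subunit NDUFA12, had 9.46, 11.9 and 10.7 CPM with PRDM16 and 8.77, 11.6 and 13.2 CPM with NC. NDUFAF1, which works with ACAD9 and ECSIT on the membrane arm, had 6.92, 8.01 and 6.44 CPM with PRDM16 and 6.63, 6.56 and 8.49 CPM with NC. The groups of these 2 genes overlapped, at log2 fold changes of -0.06 ± 0.15 and -0.02 ± 0.16.

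**Figure D2:**
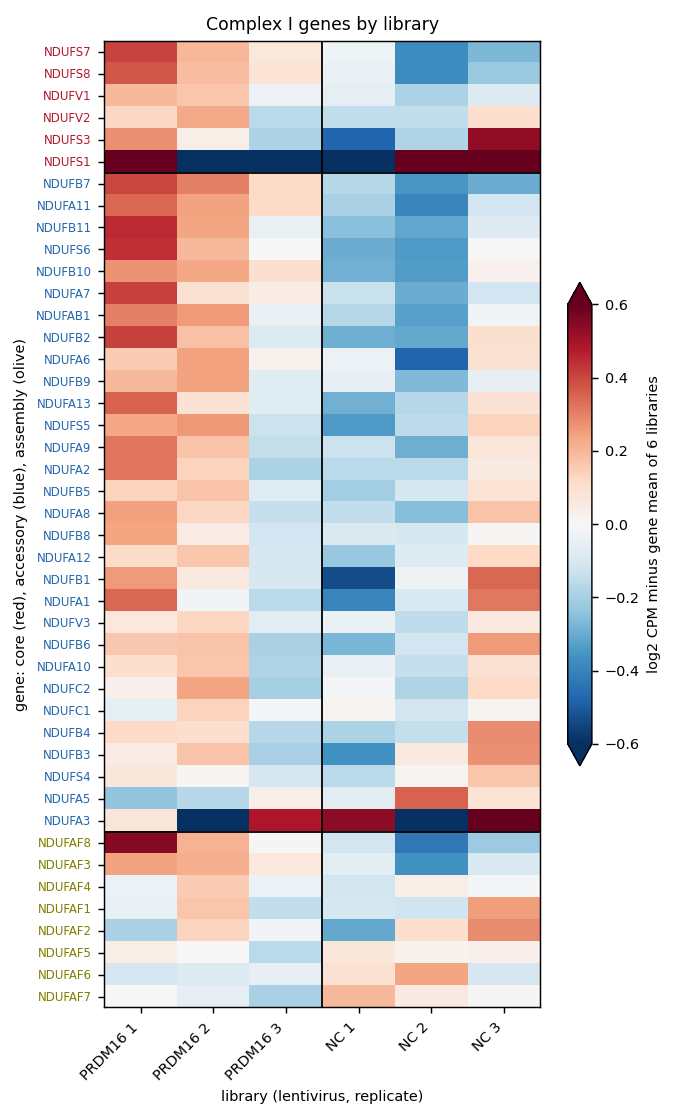
Deviation of log2 CPM from the mean of the 6 libraries for each gene (rows, by role and fold change) in each library (columns, PRDM16 left of NC); colours are cut at 0.6 either way, which NDUFS1 and NDUFA3 pass. PRDM16 libraries 1 and 2 are mostly red and NC libraries 1 and 2 mostly blue, while PRDM16 library 3 and NC library 3 run the other way in many rows.

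**Figure D3:**
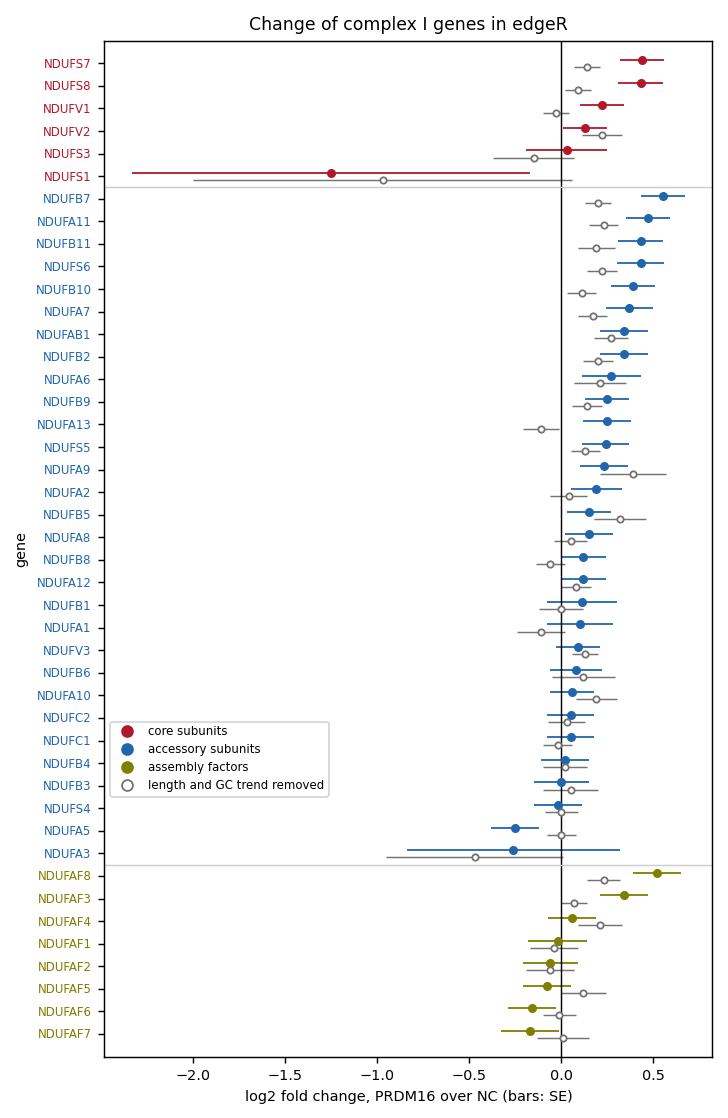
Log2 fold change of each gene, PRDM16 over NC, with its standard error, from edgeR (filled) and with the length and GC trend removed (open grey). NDUFB7 at 0.55 and NDUFAF8 at 0.52 are the largest filled values, and the corresponding open values are 0.20 and 0.23.

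The split of the libraries was similar in the median over all 44 genes, though not in the assembly factors alone. The median deviation of the 44 genes from their own means was 0.21, 0.17 and -0.07 (log2) in the PRDM16 libraries and -0.15, -0.16 and 0.08 in the NC libraries. PRDM16 library 3 thus lay below NC library 3, and the groups overlapped. The 36 subunit genes together took 0.32%, 0.30% and 0.26% of the scaled counts with PRDM16 and 0.24%, 0.23% and 0.27% with NC. The 8 assembly factors summed to 199.9, 187 and 167 CPM with PRDM16 and 163, 150.1 and 162 CPM with NC, without overlap. Their median deviations did overlap, at -0.016, 0.141 and -0.040 with PRDM16 and -0.086, 0.027 and -0.005 with NC. In TPM the subunit genes summed to 8359, 7892 and 7356 with PRDM16 and 6737, 7204 and 7729 with NC, with overlap. The median log2 fold change of the 44 genes was 0.26 without NC library 3 and 0.08 without NC library 1.

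Gene length was taken into account because short genes as a whole stood higher with PRDM16. GC content was known for 13575 of the tested genes. Across these the log2 fold change ran against listed length (Spearman's rho = -0.432) and with GC content (rho = 0.65), given as descriptions since genes are not independent replicates. Single libraries differed in these trends. The rho of a library's deviations with GC content, over all tested genes with a value, was 0.5, 0.464 and 0.294 in the PRDM16 libraries and 0.154, -0.704 and -0.228 in the NC libraries, and that with length was -0.324, -0.36 and -0.0205 with PRDM16 and 0.0101, 0.37 and 0.146 with NC. NC library 2 had the strongest value of each, and the part of these trends in the values of single genes was not tested.

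Complex I genes are short. Of the 44, 24 fell in the shortest of 10 equal bins of length (111 to 1406 bases). The median log2 fold change was 0.24 for these 24 and 0.17 for the 1506 genes of the bin. In that bin 14 of the 24 lay above the bin's median. Over all 10 bins 26 of 44 lay above the median of genes of like length, and the median distance from it over all 44 was 0.05. These 26 were 4 of 6 core subunits, 17 of 30 accessory subunits and 5 of 8 assembly factors. With the length trend removed in the fit, 24 of 44 had a positive log2 fold change, against 48.1% of all genes. Of them 9 had an unadjusted p under 0.05 and a higher value, against 8.44% of all, and 0 passed, against 11 of all genes (0.0731%). The medians were then 0.10 for the core, 0.10 for the accessory and -0.02 for the assembly genes. NDUFA9 and NDUFA10, both long, stood at 0.34 and 0.21 with the trend removed, against 0.23 and 0.06 with it in place. NDUFS8, at 737 bases, stood at 0.28 against 0.43.

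Base composition ordered the 44 genes among themselves more closely than length. Over all 44, rho of the log2 fold change was 0.67 with GC content and -0.397 with length, as descriptions. These values lay near the 0.65 and -0.432 of all tested genes with a GC value. Over the 40 with a single place, rho was 0.774 with GC content and -0.382 with length. The top of the order was GC-rich: the transcripts of NDUFS7 have 66.1% GC, those of NDUFB7 65.0%, NDUFS8 62.7%, NDUFA11 62.3% and NDUFAF8 61.6%. NDUFA5, the lowest accessory subunit with a single place, has 36.6%. Genes of the highest GC bin (62.2% to 74.7%) stood at a median of 0.27 (log2 fold change) over the whole table, and those of the lowest bin at -0.23. In GC bins 38 of 44 lay above the median of their bin, 28 of them accessory subunits. With both trends removed, 32 of 44 were positive, against 51.7% of all genes, 6 had an unadjusted p under 0.05 and a higher value, against 3.85% of all, and 0 passed, against 5 of all genes (0.0368%). The medians were then 0.03 for the core, 0.12 for the accessory and 0.04 for the assembly genes. NDUFAB1 kept 0.27 of 0.34, while NDUFA13 stood at -0.11 and NDUFV1 at -0.03.

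**Figure D4:**
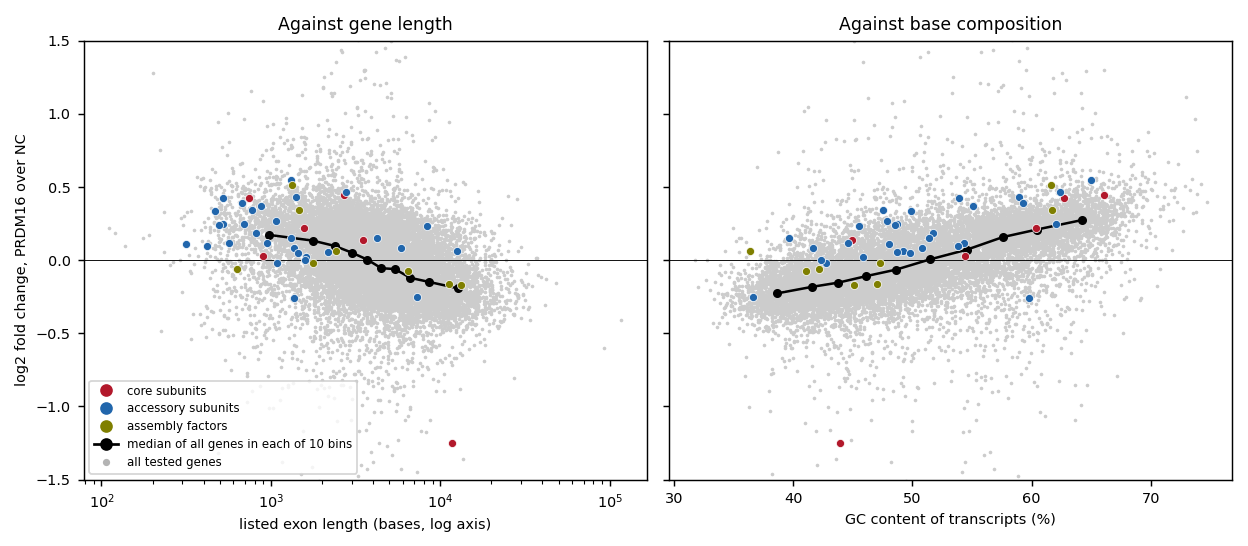
Log2 fold change, PRDM16 over NC, against listed exon length (left, log axis) and GC content of transcripts (right), for all tested genes (grey) and the 44 complex I genes (coloured by role); the black line joins the medians of 10 equal bins, and 46 tested genes beyond 1.5 either way are not drawn. The black line falls from 0.17 to -0.19 along length and climbs from -0.23 to 0.27 along GC content, and most complex I genes lie near or above it.

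The promoters of the 4 subunits with the smallest p are shown because their genes stood highest together and are among the richest in GC. They are RefSeq windows on GRCh38.p14, from 250 bases before the start of the gene to 50 after it, in the direction of the gene. Capitals mark the letters of motifs linked to nuclear genes of respiration: CCGGAAG for ETS factors, GCGCA then any base then GCGC for NRF1, and AANATGGCG for YY1, each searched on both strands, with no overlap between motifs in these windows. NDUFB7 (chr19:14572017-14572316, minus strand), NDUFA11 (chr19:5903741-5904040, minus strand), NDUFS7 (chr19:1383657-1383956, plus strand) and NDUFS8 (chr11:68030431-68030730, plus strand) have these windows.
NDUFB7: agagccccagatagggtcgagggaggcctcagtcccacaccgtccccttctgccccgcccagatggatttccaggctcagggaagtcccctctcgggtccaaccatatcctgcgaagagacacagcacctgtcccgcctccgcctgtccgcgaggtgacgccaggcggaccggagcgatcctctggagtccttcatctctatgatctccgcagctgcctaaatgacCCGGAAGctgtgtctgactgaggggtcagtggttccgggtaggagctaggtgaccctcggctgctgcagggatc
NDUFA11: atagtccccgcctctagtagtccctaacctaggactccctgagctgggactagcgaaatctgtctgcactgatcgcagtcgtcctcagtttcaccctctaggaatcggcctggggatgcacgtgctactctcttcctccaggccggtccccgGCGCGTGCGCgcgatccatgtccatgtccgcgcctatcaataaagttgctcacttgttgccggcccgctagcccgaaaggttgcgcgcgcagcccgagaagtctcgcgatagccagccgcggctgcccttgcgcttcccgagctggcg
NDUFS7: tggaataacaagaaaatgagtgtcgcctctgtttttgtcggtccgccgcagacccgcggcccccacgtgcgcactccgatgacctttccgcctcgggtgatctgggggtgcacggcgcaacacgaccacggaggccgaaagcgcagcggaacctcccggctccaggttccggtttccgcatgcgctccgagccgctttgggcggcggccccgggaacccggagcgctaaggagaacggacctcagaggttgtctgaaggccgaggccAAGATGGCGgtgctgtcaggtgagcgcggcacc
NDUFS8: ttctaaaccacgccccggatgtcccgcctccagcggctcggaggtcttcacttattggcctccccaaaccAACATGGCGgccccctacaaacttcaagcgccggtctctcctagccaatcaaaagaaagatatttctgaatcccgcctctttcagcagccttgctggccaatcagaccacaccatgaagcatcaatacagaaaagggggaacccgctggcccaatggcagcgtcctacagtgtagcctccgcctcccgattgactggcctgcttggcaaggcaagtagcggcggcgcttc
The windows have 63.0%, 62.3%, 66.0% and 57.3% GC, in that order. NDUFB7 holds the ETS letters 24 bases before its start, and NDUFA11 the NRF1 letters on the other strand 98 bases before. NDUFS7 holds the YY1 letters 17 bases after its start and NDUFS8 180 bases before. Windows were found for 39 of the 44 genes, 51 windows in all since some genes have several starts. The YY1 letters were in 14 of the 51 (27.5%), against 3.19% of all 35116 windows. The NRF1 letters were in 7 (13.7%), against 5.78% of all, and the ETS letters in 8 (15.7%), against 10.3% of all. These matches are descriptions of the letters, and no binding was measured.

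The other lists of genes of respiration gave 0 calls in edgeR, DESeq2 and limma-voom, and are described by their counts, to be read against 47.3% of all tested genes positive and 9.8% higher at an unadjusted p under 0.05. That last share was 8.44% with the length trend removed and 3.85% with length and GC removed. Counts under those settings are to be read against these shares. The median log2 fold change was 0.01 for the 12 other assembly factors of complex I, with 7 positive and 0 at an unadjusted p under 0.05. The smallest p belonged to ECSIT, at 27.3 ± 3.53 CPM with PRDM16 and 23.6 ± 1.89 with NC (SD, n = 3 each), and DMAC2, at 76.6 ± 6.83 CPM with PRDM16 and 67.6 ± 4.22 with NC. Complex II genes had a median of 0.14 (7 of 8 positive, 1 at an unadjusted p under 0.05). SDHAF1 stood at 24.9 ± 1.57 CPM with PRDM16 and 20.4 ± 3.46 with NC, and SDHB at 91.6 ± 8.38 CPM with PRDM16 and 80.9 ± 7.93 with NC. Complex III had one of 0.33 (8 of 9 positive, 6 at an unadjusted p under 0.05, 3 with the length trend removed and 2 with length and GC removed), with UQCR11 at 138 ± 19.2 CPM with PRDM16 and 105 ± 13.1 with NC, and CYC1 at 299 ± 39.1 CPM with PRDM16 and 233 ± 19.4 with NC. The list also holds UQCRC2, named after its values were seen, which is listed at 2 places and had 24, 15.1 and 2.52 CPM with PRDM16 and 2.05, 2.37 and 1.44 CPM with NC. The medians of complexes IV and V were 0.21 and 0.21, with 11 of 11 and 16 of 17 positive, and 3 of each at an unadjusted p under 0.05. With length and GC removed that was 1 of complex IV and 3 of complex V. COX8A, of complex IV, stood at 321 ± 29.1 CPM with PRDM16 and 245 ± 26.1 with NC, and COX5B at 106 ± 12.1 CPM with PRDM16 and 82.8 ± 9.35 with NC. ATP5F1D, of complex V, stood at 106 ± 15.3 CPM with PRDM16 and 79.3 ± 11.4 with NC, and ATP5MF at 132 ± 13.3 CPM with PRDM16 and 103 ± 13.4 with NC. The 13 genes of iron-sulphur cluster assembly, on which the core subunits depend, had a median of 0.20 (10 positive, 4 at an unadjusted p under 0.05, 3 with length and GC removed). BOLA3 led them, with 20.6 ± 1.87 CPM with PRDM16 and 15.3 ± 0.778 with NC, followed by ISCA2, with 50.6 ± 4.36 CPM with PRDM16 and 38.9 ± 2.97 with NC.

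The last list holds 11 genes, 8 transcription factors and coactivators of nuclear respiratory genes and 3 of the machinery that transcribes mitochondrial DNA (POLRMT, TFAM and TFB2M). Their median log2 fold change was -0.13, with 4 positive and 0 calls in edgeR. POLRMT, the mitochondrial RNA polymerase, stood at 89.8 ± 3.25 CPM with PRDM16 and 71.9 ± 1.67 with NC (SD, n = 3 each; log2 fold change 0.32 ± 0.11 SE, edgeR adjusted p = 0.244). PPARGC1B, a coactivator of nuclear respiratory genes, stood at 4.03 ± 0.981 CPM with PRDM16 and 5.27 ± 0.78 with NC (-0.38 ± 0.19, edgeR adjusted p = 0.299). The PRDM16 libraries lay below the NC libraries in 3 of the 11, against 8.7% of all genes, and above them in 1, against 12.4%. The 3 were GABPA (-0.26 ± 0.13), GABPB1 (-0.20 ± 0.14) and YY1 (-0.13 ± 0.11), named after their values were seen. NRF1 stood at 0.22 ± 0.14. None of these passed in edgeR (adjusted p 0.3 to 0.513). With both trends removed the medians of the lists were 0.00 for these 11 and -0.00 for the 12 other assembly factors of complex I. They were 0.13, 0.17, 0.14 and 0.12 for complexes II to V, and 0.11 for iron-sulphur cluster assembly, beside 0.08 for the 44 complex I genes.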

How the data were processed

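The authors deposited 1 table per library with raw read counts, TPM and FPKM per gene, per the file headers. Per the submitters' processing notes the genome build was hg38; no source used here names the aligner, counter, strand setting or annotation. Per the labels' protocols, mRNA was captured on oligo(dT) beads. The deposited TPM sum to 1000000 per library. The deposited FPKM equal counts over length and library total and were not used further. Each table had 38648 listings of 34644 names, 2008 of them at several places, and 7 records broken over lines were joined. Listings sharing a name were summed.

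edgeR 4.0.16 (R 4.3.3; TMM, robust quasi-likelihood test, filter at a minimum count of 10 and a total of 15) tested 15053 genes, with Benjamini-Hochberg adjustment over all of them and a threshold of 0.05. CPM are TMM-scaled, except for markers and PRDM16 (plain CPM, log2 with 0.1 added for its test). Trends with log2 length and with GC content were removed by offsets from a spline per library (5 degrees of freedom). GC content is the median over GENCODE 29 transcripts, found for 90.2% of tested genes. DESeq2 1.42.0 and limma-voom 3.58.1 were alternatives, and code was tested on simulated counts. Genes given by library are all core and assembly genes, the 12 accessory genes with the smallest p and the 3 lowest of the rest. Of each other list up to 2 genes by p are named, with UQCRC2, GABPA, GABPB1, YY1 and NRF1 added after their values were seen. The members and lists were chosen with earlier results of these data known. The promoter motifs were chosen after the values were seen. Floors of 3 counts cover counting error only. Every pair of libraries differed by more than sampling noise (chi-square per degree of freedom 6.39 to 41.2). Same-numbered libraries did not deviate together, so the comparison is unpaired.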

Additional observations from a re-analysis of the deposited data

How the results depend on the processing

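Over the alternatives the number of complex I genes called was 1 in edgeR with upper-quartile factors and in limma-voom, and 0 with RLE size factors, the length trend removed, the length and GC trend removed or listings kept separate, where 41 of the 44 could be tested. It was 6 with no count filter and 2 in DESeq2. Leaving out single libraries gave 0 to 6: 0 without PRDM16 library 1, PRDM16 library 2 or NC library 2, 6 without PRDM16 library 3 and 4 without NC library 3. Over all tested genes the calls were 18, against 11 with RLE size factors, 114 with no count filter, 11 with the length trend removed, 5 with length and GC removed, 47 in DESeq2, 10 with listings kept separate, and 13 (without NC library 2) to 148 (without NC library 3) over single libraries left out. With the replicate block, 0 complex I genes (NDUFB7 at an adjusted p of 0.0588 in edgeR) and 22 of all genes were called; same-numbered libraries had correlations of 0.119, -0.124 and -0.153, so the libraries share a number only. The median of the assembly factors, -0.04, was 0.04 with length and GC removed and -0.11 to 0.07 over single libraries left out. The medians of all, core and accessory genes stayed positive, at 0.08 to 0.26, 0.12 to 0.30 and 0.09 to 0.29 over single libraries left out and 0.07 to 0.14, 0.03 to 0.32 and 0.10 to 0.15 over the others, which include leaving out the genes listed at several places, an alternative chosen after seeing the data.

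Of 657 values of single genes under alternatives, 52 changed sign, 14 passed the threshold where the reported value did not and 8, all of NDUFB7, no longer passed; none of the sign changes was in a called gene. With the length trend removed the log2 fold change was -0.04 for NDUFA1, -0.03 for NDUFA12, -0.01 for NDUFB1, -0.12 for NDUFB3, -0.10 for NDUFB4, -0.05 for NDUFB6, -0.02 for NDUFB8, -0.07 for NDUFC1, -0.04 for NDUFC2, -0.11 for NDUFS3 and -0.02 for NDUFAF4. With length and GC removed it was -0.11 for NDUFA1, 0.00 for NDUFA5, -0.11 for NDUFA13, -0.06 for NDUFB8, -0.02 for NDUFC1, -0.15 for NDUFS3, -0.03 for NDUFV1, 0.12 for NDUFAF5 and 0.01 for NDUFAF7. NDUFB3 stood at -0.01 with RLE size factors, -0.01 with upper-quartile factors, -0.00 in DESeq2 and -0.00 with listings kept separate. Over single libraries left out the ranges that crossed 0 were -0.07 to 0.31 for NDUFA1, -0.67 to 0.09 for NDUFA3, -0.01 to 0.16 for NDUFA10, -0.10 to 0.34 for NDUFB1, -0.17 to 0.15 for NDUFB3, -0.08 to 0.19 for NDUFB4, -0.04 to 0.25 for NDUFB6, -0.01 to 0.09 for NDUFC1, -0.06 to 0.16 for NDUFC2, -0.17 to 0.36 for NDUFS3, -0.11 to 0.06 for NDUFS4, -0.12 to 0.11 for NDUFAF1, -0.22 to 0.07 for NDUFAF2 and -0.01 to 0.10 for NDUFAF4. The cause was not tested. The permutation p of PRDM16 was 0.1 with either pseudocount. Depth limits NDUFA3 and NDUFS3 most, at under 150 counts per library.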
